A study of Mus musculus with 2 samples.

Results

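The 54 genes described here encode the machinery that condenses, attaches and separates the chromosomes and then divides the cell: mitotic kinases and cyclins, spindle checkpoint and anaphase-promoting genes, kinetochore subunits, kinesin motors, spindle and cytokinesis proteins, condensin, and the proliferation genes Top2a and Mki67. They are a list of rows of the count table, kept where at least 50 unique molecular identifiers (UMIs, each marking 1 captured transcript) were counted over barcodes that had 500 or more detected genes and no more than 10% mitochondrial UMIs. All 54 passed, of 19144 rows in the table, 11057 of which had at least 50 UMIs. The cells came from primary neurospheres, floating colonies of cells taken around the lateral ventricles of the embryonic forebrain of CD1 mice, an outbred stock, and cultured for 7 to 10 days in serum-free medium with recombinant leukemia inhibitory factor (LIF) at 10 ng/mL. An additive called EFH is also named without saying what it is, colonies of 50 μm or more counted as primitive neurospheres, and no treatment or genotype was contrasted. The labels list 2 samples of this 1 group, but the single table of 4000 barcodes assigns no barcode to a sample, so it was treated as 1 sample with no replicate spread and no test. RNA was captured by Drop-seq, a droplet method that counts the polyadenylated 3′ ends of transcripts, and the text of the series speaks of nuclei where the labels speak of dissociated cells. The kept barcodes are called cells here.

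In a dividing cell these genes act in sequence. Cyclin A and the kinase CDK1 act from late S phase, condensin and topoisomerase II compact the chromosomes, cyclin B with CDK1 drives entry into mitosis, and the kinetochore couples each centromere to spindle microtubules while the spindle checkpoint holds back anaphase. The anaphase-promoting complex with its activator CDC20 then marks securin (Pttg1) and the B cyclins for destruction, and centralspindlin, PRC1 and kinesins build the cleavage apparatus. Their transcripts accumulate from S phase to mitosis and decline after division, and cycling radial glia and neural stem cells of the embryonic forebrain are known for them. By textbook timing, 17 of the genes were grouped as G2-early (Cdk1, Ccna2, Top2a, Mki67, the 4 condensin genes, Kif11, Kif15, Kif20b, Kif22, Kifc1, Ndc80, Nuf2, Spc25 and Incenp), 19 as mitosis-late (Ccnb1, Ccnb2, Cdc20, Cdc25b, Plk1, Aurka, Cenpa, Cenpe, Cenpf, Ube2c, Pttg1, Kif20a, Kif23, Kif2c, Hmmr, Tpx2, Ckap2, Cdca3 and Birc5), and 18 were left unplaced.

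The promoters of these genes shared sequence that the selection did not use. The cell cycle homology region (CHR), searched as TTTGAA or TTCGAA, is the element through which the DREAM and MuvB complexes are known to act on late cell cycle genes, and the CCAAT box is the site of the factor NF-Y. Both were searched on both strands of the RefSeq promoter windows (GRCm38.p6), which run from 250 bases before to 50 after the annotated start and held 46 of the 54 genes. The windows of 8 genes are shown from 100 bases before to 30 after the start, because the early genes Cdk1 and Top2a, the late genes Cdc20, Ube2c and Ccnb2, and Cenpa and Pttg1, named for carry-over, carry the results that follow, and Birc5 with Pttg1 shows a window without either motif. Capitals mark a CHR (TTTGAA, or TTCAAA on the other strand) or a CCAAT box (CCAAT, or ATTGG on the other strand).
Cdk1 (chr10:69352883-69353012, minus strand): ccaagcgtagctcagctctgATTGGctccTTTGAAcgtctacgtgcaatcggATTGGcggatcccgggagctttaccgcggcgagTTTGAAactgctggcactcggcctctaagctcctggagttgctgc
Top2a (chr11:99024160-99024289, minus strand): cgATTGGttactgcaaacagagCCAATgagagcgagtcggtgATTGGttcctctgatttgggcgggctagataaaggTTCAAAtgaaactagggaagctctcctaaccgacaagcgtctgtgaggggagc
Cdc20 (chr4:118437314-118437443, minus strand): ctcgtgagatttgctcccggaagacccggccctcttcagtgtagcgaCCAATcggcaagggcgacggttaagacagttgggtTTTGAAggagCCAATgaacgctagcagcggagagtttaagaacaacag
Ube2c (chr2:164769829-164769958, plus strand): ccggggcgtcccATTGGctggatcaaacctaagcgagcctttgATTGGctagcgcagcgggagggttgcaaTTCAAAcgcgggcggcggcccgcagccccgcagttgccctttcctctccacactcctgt
Ccnb2 (chr9:70421525-70421654, minus strand): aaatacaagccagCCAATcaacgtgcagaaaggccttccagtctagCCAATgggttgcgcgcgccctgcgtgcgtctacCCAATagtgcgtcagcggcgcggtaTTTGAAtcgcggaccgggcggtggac
Cenpa (chr5:30666786-30666915, plus strand): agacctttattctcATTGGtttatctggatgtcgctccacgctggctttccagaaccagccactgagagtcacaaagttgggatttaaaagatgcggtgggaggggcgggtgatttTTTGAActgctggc
Pttg1 (chr11:43425952-43426081, minus strand): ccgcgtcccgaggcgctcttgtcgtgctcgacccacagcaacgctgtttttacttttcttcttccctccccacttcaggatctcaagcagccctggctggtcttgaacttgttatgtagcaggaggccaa
Birc5 (chr11:117849137-117849266, plus strand): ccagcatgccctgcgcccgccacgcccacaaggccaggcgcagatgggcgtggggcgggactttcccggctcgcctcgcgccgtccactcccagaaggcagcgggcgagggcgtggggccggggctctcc

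A CHR lay anywhere in the window of 38 of the 46 genes (82.6%). The share was 15.6% among all 8194 genes with a window and at least 50 UMIs, these 46 included. Within 50 bases on either side of the start a CHR was found in 34 of 46 (73.9%), compared with 4.16%. A CCAAT box was found for 35 of 46 genes (76.1%, against 43.8%), at least 2 CCAAT boxes in 50.0% (against 17.5%), and both motifs in the same window for 33 of 46 (71.7%, against 6.79%). The share with a CHR near the start was 11 of 14 for G2-early genes, 11 of 17 for mitosis-late genes and 12 of 15 for unplaced genes. Among other genes it was found for 1 of 15 kinesins that carry cargo rather than chromosomes, 1 of 16 genes of the anaphase-promoting complex, 5 of 24 other kinetochore genes, 3 of 8 cohesin and separase genes and 2 of 4 other condensin genes. The 8 genes without a CHR in the window were Birc5, Ccnb1, Cenpe, Kif18a, Mad2l1, Nuf2, Nusap1 and Pttg1. A match describes these letters in these windows only. CHR and CCAAT matches overlapped in 2 of the 49 member windows.

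Library depth and cell identity frame the values. The 3765 kept cells held 17395968 UMIs, with a median of 3869 and a range of 638 to 54060. Each of 10 markers of radial glia or neural stem cells was present (together 13002 CPM, counts scaled to a common library total), neuron markers were at 196 CPM, and microglia, endothelial and fibroblast markers at 0.690, 4.94 and 0.862 CPM, with Csf1r, Aif1, C1qa, C1qb, Tyrobp, Cdh5 and Dcn at 0 or without a row. Comparisons between cells used 3055 cells thinned at random to 2000 UMIs each, leaving out 710 shallower cells. The last base was unread in 285 of the 4000 barcodes and 25 barcode pairs lay 1 base apart, and an alternative without them is among those tried. Doublets were not called. Parentheses after levels give exact 95% Poisson intervals, after shares of cells exact binomial (Clopper-Pearson) intervals, and after ratios exact conditional binomial intervals. All cover counting error only.

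Together the 54 genes supplied 149947 UMIs, or 0.862% of all UMIs in kept cells (8620 CPM, 8576 to 8663). Their median level was 116 CPM, compared with 29.3 CPM over all 11057 genes. Each molecule is counted once at its 3′ end whatever its length, so these levels are per molecule and not divided by length. Top2a, the topoisomerase that untangles sister chromatids, was the most abundant at 459 CPM, followed by the condensin ATPase Smc4 at 446 CPM. Next came Ube2c, the ubiquitin-conjugating enzyme of the anaphase-promoting complex, at 369 CPM and the microtubule bundler Prc1 at 365 CPM. Ckap2, a spindle microtubule protein, was at 360 CPM, Cdk1 at 324 CPM, securin Pttg1 at 289 CPM and Cenpa, the centromeric histone H3 variant, at 284 CPM. The lowest were the phosphatase Cdc25b at 17.2 CPM and the minus-end kinesin Kifc1 at 34.1 CPM.

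**Figure D1:**
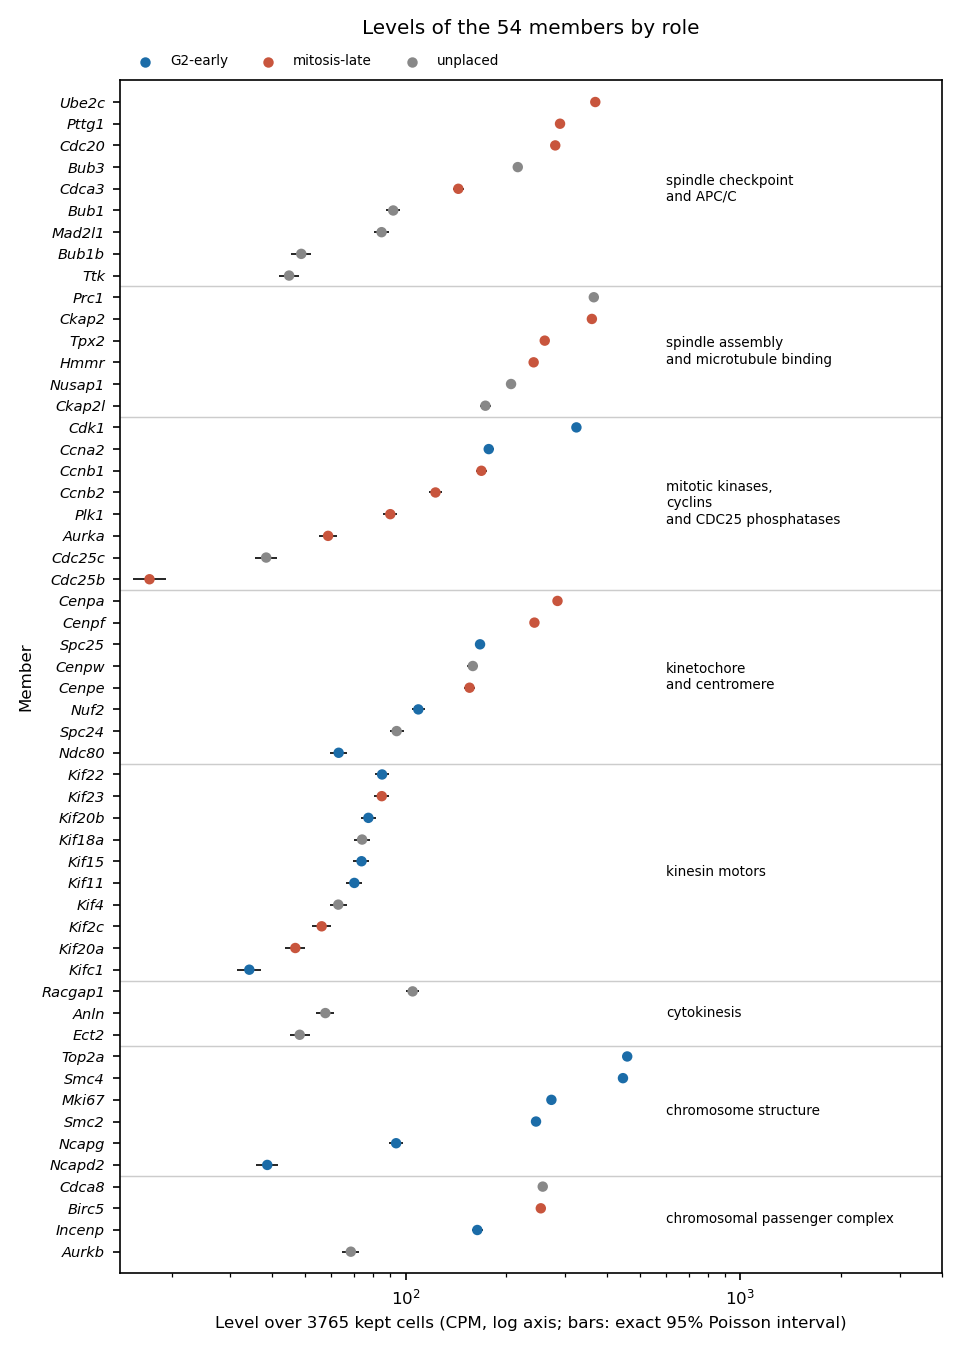
Level of each of the 54 genes over 3765 kept cells, in CPM on a log axis, grouped by role and coloured by timing group. Bars are exact 95% Poisson intervals. Top2a (459 CPM) is the highest and Cdc25b (17.2 CPM) the lowest, and the 10 genes under kinesin motors, which leave out Cenpe, reach at most 85.1 CPM.

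Levels differed by role. The 10 Kif and Kifc kinesins were low, from 34.1 to 85.1 CPM each and 666 CPM summed, whereas Cenpe, a kinesin counted here with the kinetochore, was at 155 CPM. By comparison the cytokinesis genes Racgap1, Anln and Ect2 summed to 211 CPM. The 6 spindle assembly genes summed to 1606 CPM, the 9 checkpoint and anaphase-promoting genes to 1568 CPM, and the 6 chromosome structure genes to 1555 CPM. Within the checkpoint and anaphase-promoting group Ube2c, Pttg1 and Cdc20 (280 CPM) were highest, followed by the checkpoint protein Bub3 (216 CPM) and by Cdca3 (144 CPM). The checkpoint genes Bub1 (91.9 CPM), Mad2l1 (84.8 CPM), Bub1b (48.8 CPM) and Ttk (44.9 CPM) were lowest in it. Among kinetochore genes Cenpa and Cenpf (243 CPM) were higher than the 4 subunits of the NDC80 complex, the microtubule coupler, which ran from Ndc80 at 63.1 CPM to Spc25 at 167 CPM. The 3′ end of 3 of the genes matched another transcript (Kif20a with Cdc23, Kifc1 with Kifc5b, Ncapg with Lcorl) over at least 200 of its last 400 bases at 95% identity or more, on either strand, so their counts are uncertain.

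Per cell the genes were unevenly spread. At 2000 UMIs per cell the summed count of the 54 genes had a median of 8, quartiles of 3 and 24, and a maximum of 85, and 136 cells (4.45%) had none. The 305 cells with the most held 34.2% of the UMIs of these genes. The variance over the mean at 2000 UMIs had a median of 1.33 over the 54 genes and of 1.06 over all genes, and 15 of the 54 lay above the 99th percentile of all genes (1.66). It was highest for Ube2c (2.71), Top2a (2.49), Prc1 (2.44) and Cenpf (2.10). For Cdc25b, at only 0.0301 UMIs per thinned cell, it was 1.01, close to what counting alone gives. Levels were not matched here, with a median of 116 CPM for the 54 genes and 29.3 CPM over all genes.

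To place the genes along the cycle, cells were classed by genes outside the list. The 29 mitosis anchors (such as Tacc3, Aspm, Cks2 and Cep55) and the 40 S phase anchors (such as Mcm2 to Mcm7, Pcna and Rrm2) were summed per thinned cell. Mitosis-anchor cells had at least 7 mitosis anchor UMIs (480 cells, 15.7%), S-anchor cells had at least 11 S anchor UMIs and at most 2 mitosis anchor UMIs (390 cells, 12.8%), and low cells had at most 1 mitosis anchor and 2 S anchor UMIs (622 cells, 20.4%). The other 1563 cells were in no class. These are ranges of a continuous score: 351 cells lay within 1 UMI of the upper mitosis limit and 308 within 1 UMI of the upper S limit. Median UMIs before thinning were 5493 in mitosis-anchor, 4645.5 in S-anchor and 3988 in low cells, and whether that gap has a part in the ratios beyond the thinning was not tested. The summed level of the 54 genes was 40.6 UMIs per 2000 in mitosis-anchor cells, 9.18 in S-anchor cells and 2.90 in low cells.

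All 54 genes were higher in mitosis-anchor than in low cells, by a median of 19.9-fold. A gene counts as higher or lower here when its whole interval lies beyond 1.5-fold, and over all 11057 genes 4.16% were higher and 1.63% lower. The anchors are textbook partners of these genes, so the sizes rather than the count carry the comparison. Ube2c was at 1022 CPM (959 to 1087) in mitosis-anchor cells and 38.6 CPM in low cells, a ratio of 26.5 (19.8 to 36.2). Prc1 was at 917 CPM against 28.9 CPM (31.7, 22.7 to 45.5), and Cdk1 at 735 CPM against 28.1 CPM (26.1, 18.6 to 37.8). The kinetochore motor Cenpe had a ratio of 35.9 (21.5 to 64.6), and Hmmr, a spindle pole protein, one of 32.0 (21.9 to 48.5). Aurka, the spindle pole kinase, had the largest ratio (63.1, 21.2 to 309), on only 3 UMIs in low cells.

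The smallest ratios belonged to genes that low cells also carried. Bub3, a checkpoint protein, was at 348 CPM in mitosis-anchor and 106 CPM in low cells, a ratio of 3.28 (2.67 to 4.04). Cenpw, a subunit of the inner kinetochore, had a ratio of 3.38 (2.62 to 4.40) and Pttg1 one of 4.95 (4.13 to 5.96). Pttg1 was at 601 CPM in mitosis-anchor cells and still at 121 CPM in low cells, where it was the most abundant of the 54 genes, beside Ckap2 at 121 CPM and Smc4 at 117 CPM. Pttg1 made up 2.96% of the UMIs of the 54 genes in mitosis-anchor cells and 8.37% in low cells, and Bub3 1.71% and 7.32%. For Ube2c the order was the opposite, 5.03% and 2.66%. The make-up of the set thus differed between the classes, and the part of free RNA in the levels of low cells was not tested.

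Other genes of the pathway, counted from lists, moved less uniformly between mitosis-anchor and low cells, to be read beside the 4.16% of all genes that were higher. Of 26 other kinetochore genes 21 were higher, of 4 other condensin genes 3 (Ncaph, Ncapg2 and Ncapd3), and of 11 cohesin and separase genes 5 (Smc1a, Rad21, Esco2, Cdca5 and Espl1). Of 17 genes of the anaphase-promoting complex and its regulators 4 were higher: the subunits Anapc15 and Cdc23, the co-activator Fzr1 and the inhibitor Fbxo5. The 3′ end of Kif20a matches a Cdc23 transcript in a search that did not tell the strands apart. Fbxo5, also known as EMI1, had a ratio of 20.0 (8.19 to 63.2). Of 11 regulators 5 were higher, among them Foxm1, a transcription factor of G2 genes, at 40.6 CPM against 2 UMIs in low cells. Of the 7 genes that control mitotic entry, Pkmyt1 and Mastl were higher. None of 18 transport kinesins and none of 10 radial glia markers was higher or lower. Of 14 neuron markers none was higher and 4 were lower (Stmn2, Stmn4, Gad2 and Ina). The 16 listed neuron markers summed to 131 CPM (109 to 156) in mitosis-anchor cells, with Gad2, Dlx5 and Ina at 0, and to 295 CPM (266 to 327) in low cells, and their part in the ratios was not tested. Of 10 genes of G1 and cell cycle exit, Cdkn1b was higher, at a ratio of 2.05 (1.68 to 2.51). Ccnd2 and Btg2 were lower, at 0.556 (0.516 to 0.599) and 0.506 (0.406 to 0.628).

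The timing groups, chosen with earlier results of these data known, differed in S-anchor cells. Of the 54 genes 39 were higher in S-anchor than in low cells, beside 3.63% of all genes. The class limits allow S-anchor cells more mitosis anchor UMIs, and they held a mean of 1.14 per 2000, against 0.471 in low cells. Of the 29 mitosis anchors 12 were higher, with a median ratio of 4.25, and the part of this difference in the 39 was not tested. Of 14 neuron markers 3 were lower (Stmn2, Stmn4 and Gad2), with a summed level of 217 CPM (185 to 252) in S-anchor cells, and their part was not tested. Among G2-early genes 15 of 17 were higher with a median ratio of 4.90, and among mitosis-late genes 9 of 19 with a median of 2.37. Cdk1 was at 229 CPM (197 to 266) in S-anchor cells, 8.16 times its low-cell level, and Top2a at 306 CPM (269 to 348), 6.69 times. Smc2 and Smc4, the condensin core, were at 213 and 391 CPM, and the spindle motor Kif11 at 47.4 CPM, with a ratio of 8.43 (3.71 to 22.4). By contrast Cenpa was at 69.2 CPM (52.0 to 90.3) in S-anchor and 65.9 CPM (52.4 to 81.8) in low cells, a ratio of 1.05 (0.731 to 1.5). The ratio was 1.04 for cyclin Ccnb2 (0.621 to 1.71), 0.845 for Pttg1 (0.636 to 1.12) and 1.28 for the kinase Plk1 (0.618 to 2.59). These 4 late genes therefore had no detectable difference between S-anchor and low cells at this depth, although each was at least 4.95 times higher in mitosis-anchor than in low cells.

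**Figure D2:**
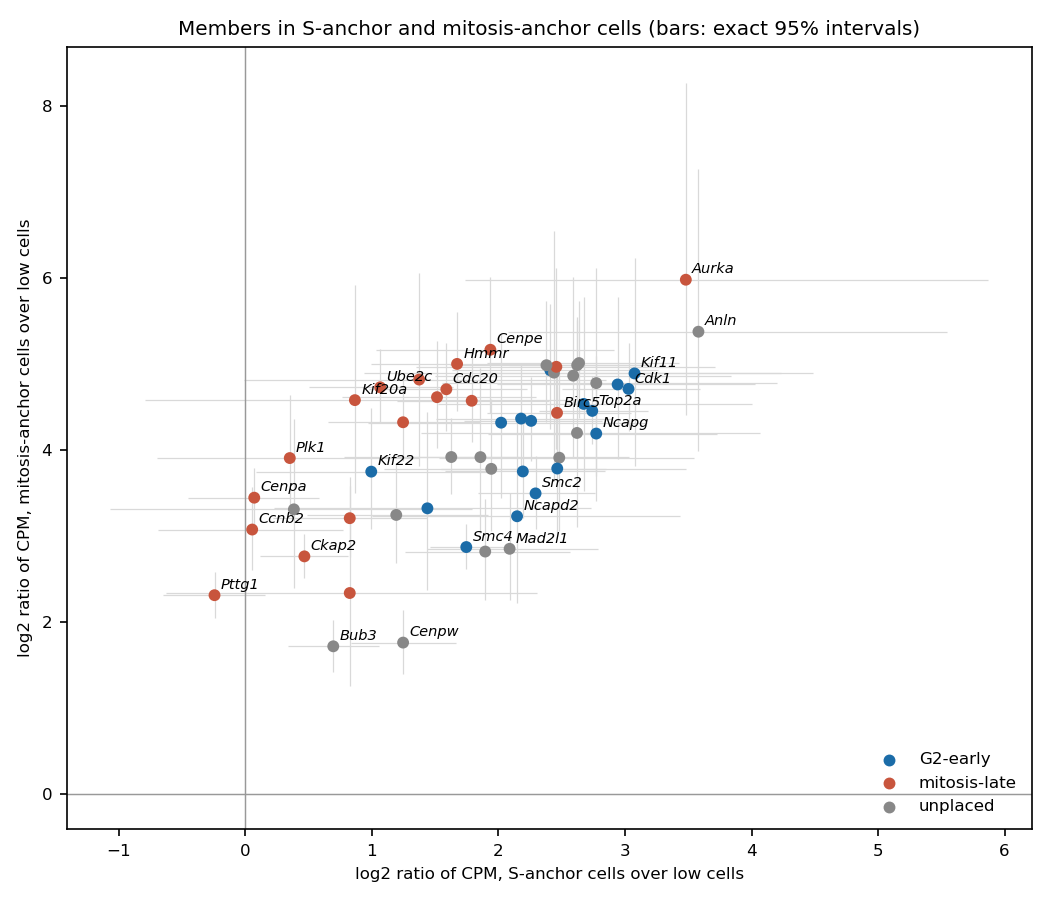
Log2 ratio of CPM in S-anchor over low cells (horizontal) and in mitosis-anchor over low cells (vertical) for the 54 genes, coloured by timing group, with exact 95% intervals as lines. Mitosis-late genes such as Cenpa, Ccnb2 and Pttg1 lie near 0 on the horizontal axis, while Cdk1, Top2a and Kif11 lie to the right, and all points lie above 0 on the vertical axis.

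Set directly against mitosis-anchor cells, S-anchor cells held less of 49 of the 54 genes (1.52% of all genes were lower and 0.814% higher). The classes were set apart by their mitosis anchor UMIs, which the genes follow, so that count was largely fixed by the class limits and only the differences among the genes are described. The median log2 ratio of S-anchor to mitosis-anchor cells was -1.81 for G2-early and -3.07 for mitosis-late genes, a difference of 1.26, beside 0.03 for all genes. In 296 of 323 pairs of a G2-early and a mitosis-late gene (91.6%) the early gene had the higher ratio. The timing groups and anchors were chosen with earlier results of these data known. The difference therefore describes these lists and is no independent evidence of their timing. The order ran from Cenpw (ratio 0.702), Mad2l1 (0.591), Spc24 (0.529) and Bub3 (0.494), all unplaced, through the condensin genes Ncapd2 (0.473), Smc4 (0.459), Smc2 (0.436) and Ncapg (0.375). It ended with Cenpa (0.0966), Kif2c (0.0920), Plk1 (0.0852), Ube2c (0.0790) and Kif20a (0.0763). Ube2c was at 80.8 CPM in S-anchor cells and Kif20a, a motor of the anaphase midzone, at 10.3 CPM, on 8 UMIs.

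Some genes lay against their timing group. Kif22, a chromokinesin, and Spc25 were placed with the early genes but had S-anchor to mitosis-anchor ratios of 0.149 and 0.175. Birc5 (survivin, of the chromosomal passenger complex) and Cdc25b were placed with the late genes but had ratios of 0.256 and 0.352, the latter on 10 UMIs in S-anchor cells. Subunits of 1 complex also spread: within the NDC80 complex Spc24 (0.529) lay far above Spc25 (0.175), and within the passenger complex Aurkb (0.372) and Incenp (0.340) lay above Cdca8 (0.205). All 4 condensin genes lay within the upper 9 of the 54.

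A narrower split, added after the data were seen, compared mitosis-anchor cells with at least 11 S anchor UMIs (78 cells) and with at most 2 (45 cells). The median log2 ratio of the first to the second was 0.05 for G2-early and -0.64 for mitosis-late genes. Only Ccnb2 was called, lower at 0.337 (0.187 to 0.592), beside 0.217% of all genes lower and 0.353% higher. Cenpa was at 385 CPM (294 to 495) in the cells with many S anchor UMIs, 784 CPM (721 to 852) in the 357 cells between and 756 CPM (587 to 958) in those with few. For Ube2c the values were 513, 1144 and 933 CPM. For Top2a they were 910, 1034 and 922 CPM, with overlapping intervals. Of the 19 late genes none had its highest level in the cells with many S anchor UMIs, while 4 of 17 early and 2 of 18 unplaced genes did. In the cells between, 10 early and 10 late genes had their highest level. The share over all genes was not computed, so no conclusion is drawn from these counts. Intervals can overlap here, as for Ncapd2 at 96.2 CPM (53.8 to 159, on 15 UMIs) against 63.0 CPM (46.0 to 84.3) in the cells between. The cells with many S anchor UMIs also held fewer mitosis anchor UMIs than those with few, 8.62 against 10.4 per 2000. The part of that difference was not tested. Whether some of these 78 cells are doublets of an S phase and a mitotic cell was not tested.

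Across the 3055 cells the summed early and late counts rose together (Pearson r = 0.746). Early genes also followed the S anchors (r = 0.270), whereas late genes hardly did (r = 0.016), and both followed the mitosis anchors (0.704 and 0.755). These values describe cells of the same table at the same thinned depth, and sums of abundant genes correlate more than sparse ones. In a minority of cells at least 2 UMIs were counted for 1 of the groups and none for the other. There were 196 cells (6.42%, 5.57 to 7.34) with no early UMI and at least 2 late UMIs, and 173 cells (5.66%, 4.87 to 6.54) with no late UMI and at least 2 early UMIs. In both sets of cells the most frequent count of the group present was 2, the lowest that the rule allows. The part of counting error at this depth was not tested, so these cells are sorted by counted UMIs only. Among the late UMIs of the 196 cells Pttg1 supplied 21.8%, Ckap2 17.8%, Cenpa 11.9% and Ccnb2 7.28%, compared with 8.94%, 10.4%, 8.56% and 3.82% of the late UMIs of all cells. Ube2c and Hmmr supplied less in the 196 cells (4.49% and 2.17%) than in all cells (9.56% and 6.73%).

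**Figure D3:**
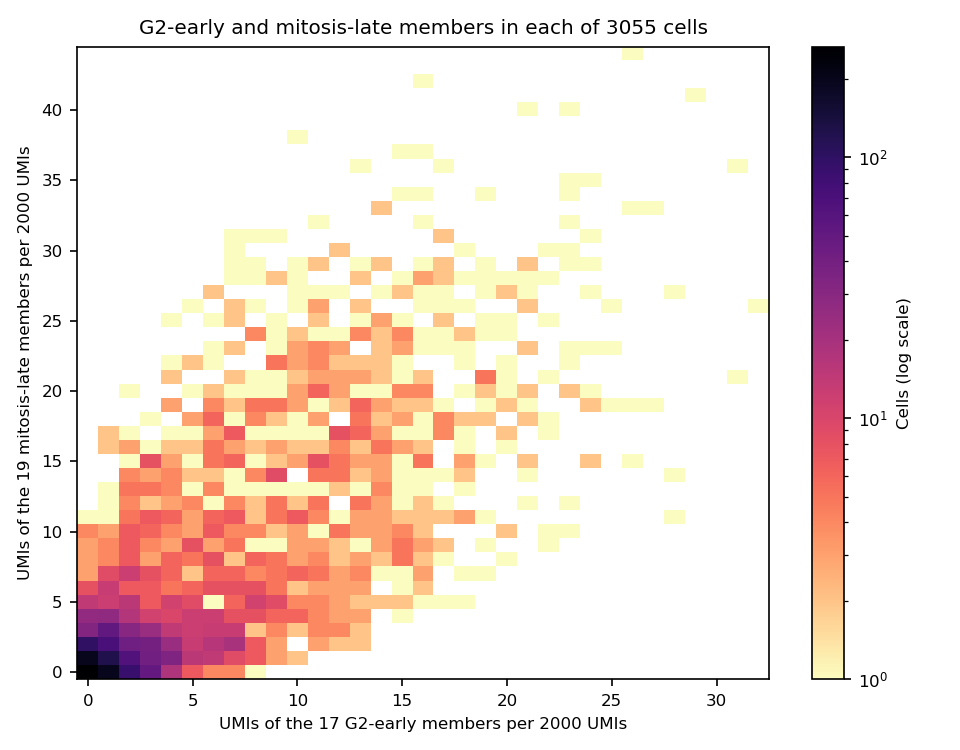
UMIs of the 17 G2-early genes (horizontal) and of the 19 mitosis-late genes (vertical) in each of 3055 cells thinned to 2000 UMIs, with the number of cells at each position as colour on a log scale. Most cells sit at the lower left, the remainder rise along both axes together (r = 0.746), and a strip at 0 early UMIs reaches 11 late UMIs.

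Pairwise co-variation at equal depth was modest for most genes. Over the 1431 pairs the median Pearson r was 0.162, the range -0.005 to 0.550, and 130 pairs exceeded 0.3. The strongest pair was Ube2c with Prc1 (0.550), followed by Top2a with Prc1 (0.522), Nusap1 with Top2a (0.493) and Cdk1 with Prc1 (0.481). A gene's median r followed its mean level (r = 0.787 across the 54 genes, which share cells and depth), so weak values of scarce genes are no finding. Ube2c and Prc1 were each the best partner of more genes than Cdc20 was, Ube2c for instance of Cenpf (0.468) and Ccnb1 (0.441). Cdc20 was the best partner of 8 genes, among them Cenpa (0.425), Tpx2 (0.410), Ckap2 (0.384), Cdca8 (0.382) and Pttg1 (0.349). Ccnb2 and Kif20a correlated best with Cenpa, at 0.284 and 0.236. Pttg1, with 0.566 UMIs per thinned cell, had a median r of 0.148, while Ube2c at a similar 0.605 UMIs had 0.280 and Prc1 at 0.584 UMIs had 0.253.

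The median r within a complex or gene group was near or below that to the other genes. Levels were not matched, so no conclusion on co-variation within complexes is drawn. The median r within the NDC80 complex was 0.148 and that of its subunits to the other genes 0.146. For the chromosomal passenger complex these were 0.178 and 0.176, for condensin 0.131 and 0.149, for the centralspindlin group of Kif23, Racgap1 and Ect2 0.121 and 0.150, for the checkpoint genes 0.0824 and 0.126, and for the 10 kinesins 0.123 and 0.150. The highest single pairs within a complex were Birc5 with Cdca8 at 0.315 and Smc2 with Smc4 at 0.293. By timing, again without matching levels, the median was 0.182 among early genes, 0.234 among late genes and 0.183 between them.

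**Figure D4:**
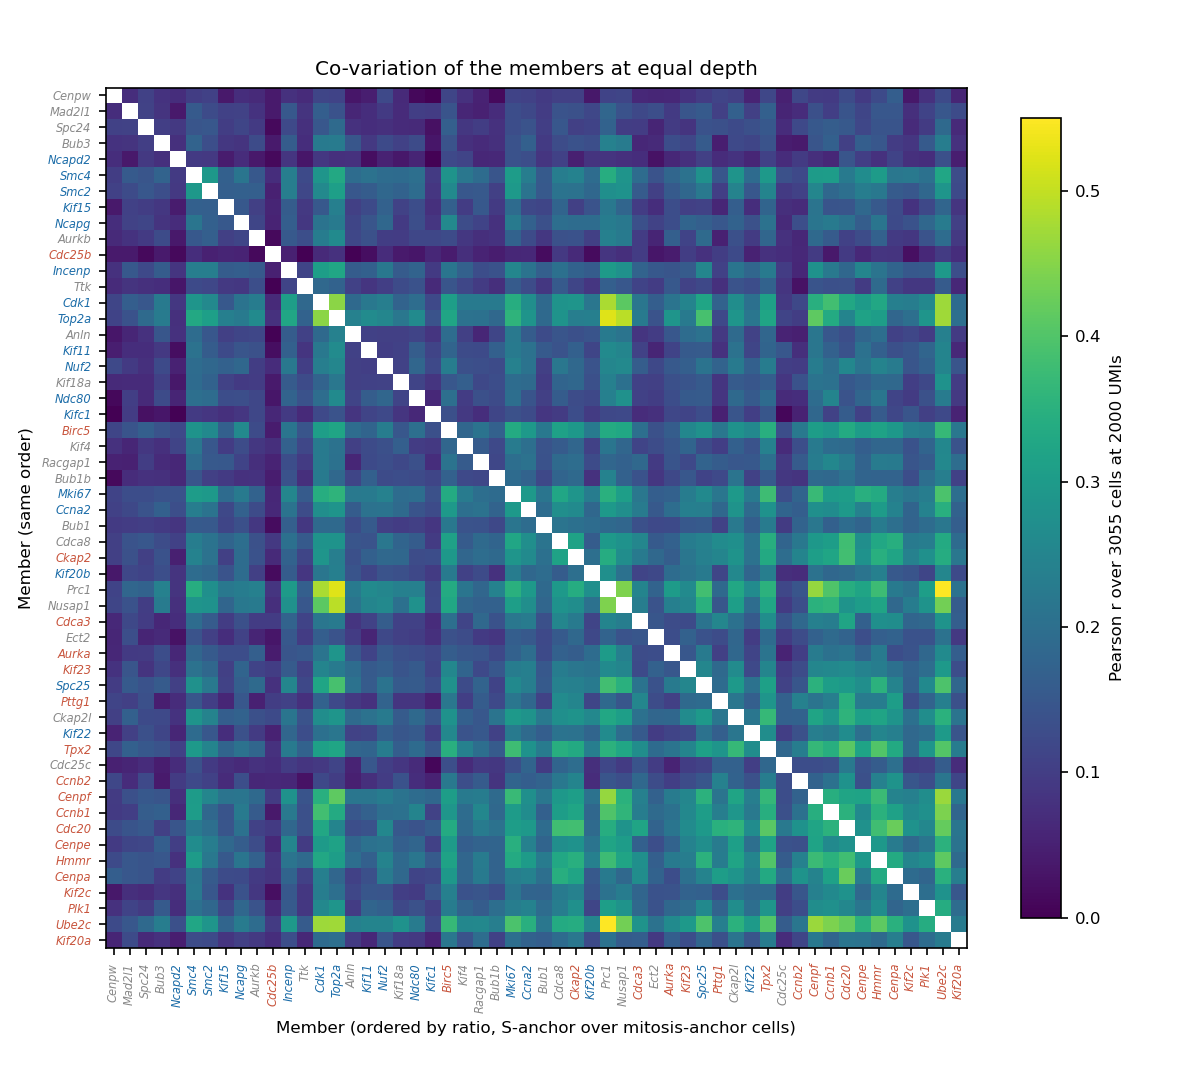
Pearson r of each pair of the 54 genes over 3055 cells at 2000 UMIs, with genes ordered by the ratio of S-anchor to mitosis-anchor cells, label colours giving the timing group and the diagonal left white. Bright bands mark Top2a, Cdk1, Prc1 and Ube2c (up to 0.550), and dark bands mark scarce genes such as Cdc25b and Ncapd2.

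For carry-over, levels were compared between cells without a Top2a UMI and cells that had it. At 2000 UMIs, 1989 cells had no Top2a UMI and 1066 had at least 1. The 1989 cells were not without early transcripts. They held a mean of 2.43 G2-early UMIs per 2000, against 9.76, Top2a included, in the 1066. Of the other 53 genes 48 were lower without Top2a (1.94% of all genes were lower and 0.163% higher), and their median level was 31.8% of that with Top2a. Pttg1 kept the most, at 250 CPM (235 to 266) without and 344 CPM (320 to 370) with Top2a, or 72.6% (65.9 to 80.0). Cenpw kept 68.8% (60.3 to 78.7) and Ccnb2 67.5% (58.3 to 78.3). Cenpa came next, at 223 CPM (208 to 238) against 360.2 CPM (335 to 387), or 61.9% (56.1 to 68.3), and Ckap2 kept 53.4% (48.9 to 58.3). The intervals of Pttg1, Cenpw, Ccnb2 and Cenpa overlap, so their order among themselves was not resolved. At the other end Prc1 kept 14.8% (13.2 to 16.6), Nusap1 15.8%, Aurka 16.7% and Ube2c 19.8%. Late timing alone did not give a high value: the median was 33.8% for the late and 31.6% for the early genes, and Ube2c, Cenpf and Plk1, all late, stood below both.

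A missing Top2a UMI is not a missing transcript at this depth. Of the cells without Top2a, 7.29% were mitosis-anchor cells, compared with 31.4% of those with it. Median UMIs before thinning were 4164 and 5540.5. A stricter group without any UMI of Top2a, Mki67, Cdk1 and Ccna2 held 1277 cells, of which 1.10% were mitosis-anchor cells. These cells still held a mean of 0.908 G2-early UMIs per 2000. In that group 49 of 50 genes were lower than in cells with Top2a (2.79% of all genes were lower and 0.597% higher), with a median of 13.8%, and Cenpw was the exception. The group also held more neuron marker RNA, 261 CPM (242 to 282) against 169 CPM (152 to 188) in cells with Top2a. Of 14 neuron markers 3 were higher (Stmn2, Stmn4 and Nsg2), Stmn2 on 40 against 2 UMIs, and their part in these values was not tested. Cenpw kept 57.4%, Pttg1 51.2%, Ccnb2 42.9%, Bub3 42.7%, Cdc25b 35.1% (on 21 UMIs), Ckap2 32.7% and Cenpa 31.7%, while Ube2c kept 7.62% and Nusap1 5.16%. Cenpa stood at 114 CPM (102 to 128) and Pttg1 at 176 CPM (160 to 193) there. In the 865 of these cells with at most 1 mitosis anchor UMI, Cenpa stood at 61.8 CPM (50.7 to 74.7) and Pttg1 at 112 CPM (96.4 to 128). The low cells stood at 65.9 and 121 CPM. Both groups were limited to at most 1 mitosis anchor UMI and share cells. Their nearness is thus no independent comparison, and nothing is concluded from it. Reading Top2a from all UMIs of deep cells, a choice added after the data were seen, was a further check. In cells with at least 4000 UMIs (711 without Top2a, 1104 with) Ccnb2 kept 68.6%, Pttg1 66.1%, Cenpw 57.3% and Cenpa 54.03%, beside a median of 24.2%. In cells with at least 8000 UMIs (83 and 385) Pttg1 kept 56.1% (47.3 to 66.2), Ccnb2 51.2%, Bub3 49.7%, Cenpw 47.8% and Cenpa 39.8% (32.9 to 47.8), beside a median of 15.1%.

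**Figure D5:**
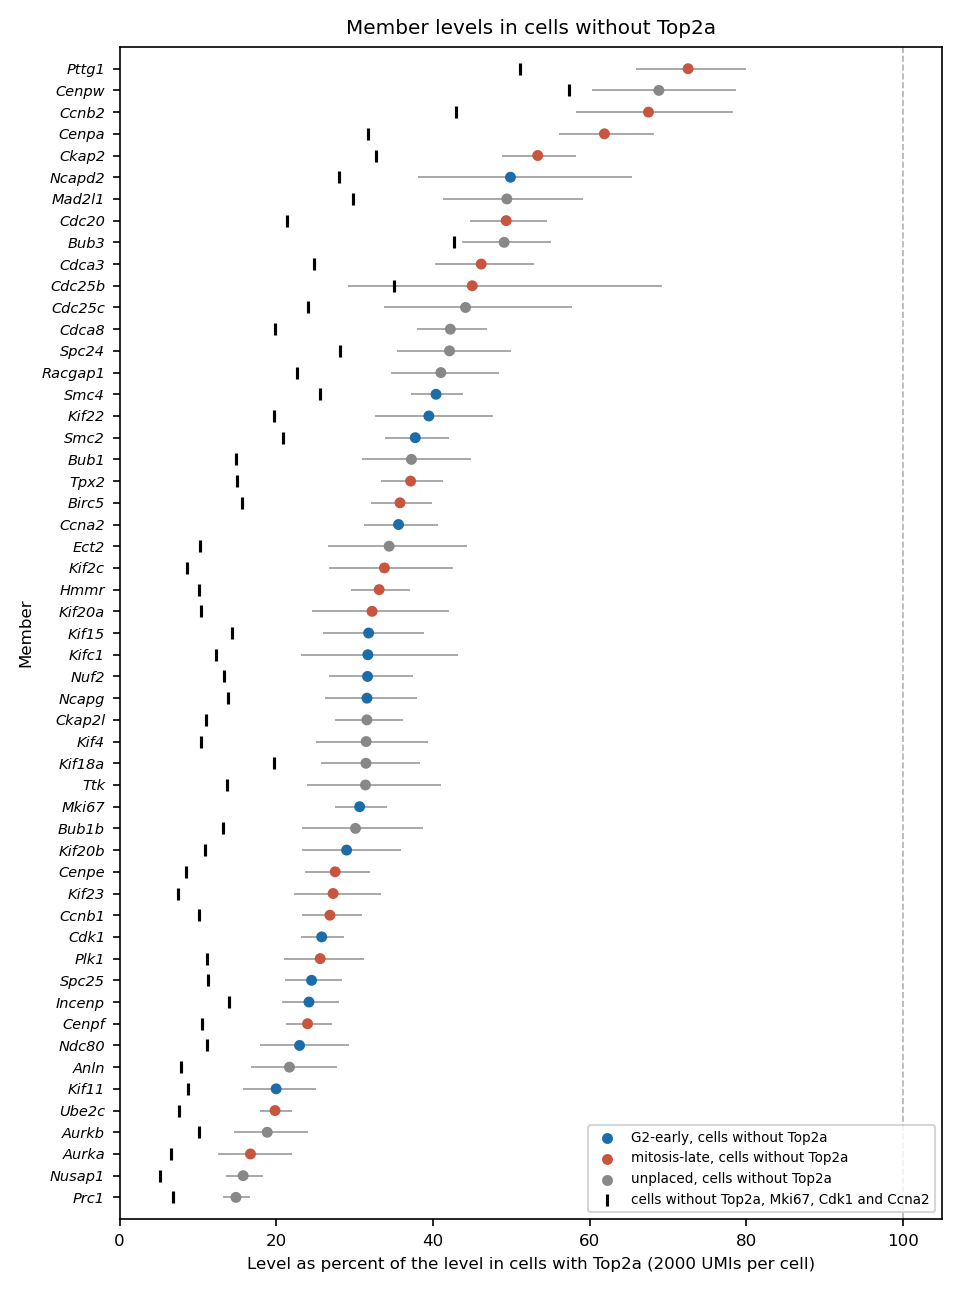
Level of each of 53 genes in 1989 cells without Top2a, as percent of its level in 1066 cells with Top2a at 2000 UMIs per cell (dots with exact 95% intervals, coloured by timing group). Black ticks give the same for the 1277 cells without Top2a, Mki67, Cdk1 and Ccna2. Pttg1, Cenpw, Ccnb2 and Cenpa are at the top on the dots, and Prc1 at 14.8% is at the bottom.

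Shares of cells with a UMI need a background, and none of the cells here gave a firm one. Cenpa had a UMI in 25.1% (23.2 to 27.1) of cells without Top2a and Pttg1 in 29.8% (27.8 to 31.9). For comparison, 27 thinned cells had UMIs of at least 4 neuron marker genes, a rule that does not exclude dividing cells. Their shares were 37.0% (19.4 to 57.6) and 11.1% (2.35 to 29.2), at a median of 3689 UMIs before thinning against 4164. The share for Cenpa without Top2a was not above that of these 27 cells, and the interval for Pttg1 reaches its share without Top2a. The 27 cells held 10.5 UMIs of the 54 genes per 2000, beside 8.78 in cells without Top2a, and 6 of them had Top2a. They were thus not free of mitotic transcripts and cannot decide whether a Cenpa UMI without Top2a reflects expression. In the 7 cells with at least 8 neuron marker genes the summed level was 2.43 per 2000, Cenpa was present in 2 and Pttg1 in 0 of the 7, a count of 0 that, at 3 counts of the total, allows up to 42.9% of such cells to hold a UMI. Levels in the 27 cells have the same limit. Cenpa was at 333 CPM (198 to 527, on 18 UMIs) in the 27 cells, compared with 223 CPM without Top2a, and Pttg1 at 92.6 CPM (30.1 to 216, on 5 UMIs), compared with 250 CPM. The level of Cenpa in cells without Top2a is therefore not shown to lie above that of these 27 cells, which cannot decide the question.

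The cells without the 4 early genes were also split by whether a Cenpa UMI was counted, to describe which transcripts were counted with it. No firm background was available for a Cenpa UMI, so the split sorts cells by counted UMIs only. Whether this split also sorts cells by expression was not tested. Among the 1277 cells, 190 had a Cenpa UMI, and 24 of 49 other genes were higher in them than in the 1087 without it and none was lower, beside 0.624% of all genes higher and 0.208% lower. This included 14 of 18 late genes, 8 of 18 unplaced and 2 of 13 early genes (Nuf2 and Ncapd2). Cdc20, the activator of the anaphase-promoting complex, was 6.17 times higher (4.67 to 8.14), Tpx2 6.27 times (4.51 to 8.73), Ccnb2 5.33 times (3.89 to 7.29) and Pttg1 4.30 times (3.55 to 5.20). Smc4 had a ratio of 1.36 (1.05 to 1.74), Aurkb of 1.10 (0.330 to 2.91) and Kif18a of 1.32 (0.641 to 2.51). None of 40 S anchors and none of 10 G1 and exit genes was higher or lower, and 6 of 29 mitosis anchors were higher (Tacc3, Dlgap5, Pbk, Cdkn3, Knstrn and Aspm, named after their values were seen). Of 14 neuron markers Stmn2 was higher, on 21 UMIs with Cenpa and 19 without, a ratio of 6.32 (3.24 to 12.4). The neuron markers summed to 332 CPM (276 to 395) with Cenpa and 249 CPM (228 to 271) without, and their part was not tested. Median UMIs before thinning were 3753 with Cenpa and 4160 without.

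The same split was made by Pttg1. In the 293 cells with a Pttg1 UMI, 20 of 49 other genes were higher than in the 984 without it (0.434% of all genes, with 0.208% lower): 10 of 18 late, 8 of 18 unplaced and again Nuf2 and Ncapd2 among 13 early genes. Cenpa was 5.40 times higher (4.24 to 6.90), Tpx2 4.55 times (3.26 to 6.36) and Cdca3, an F-box protein of mitotic entry, 4.33 times (3.04 to 6.19). The neuron markers Stmn2 and Nsg2 were lower with Pttg1, 2 of 14, the opposite direction for Stmn2 from the split by Cenpa. Neuron markers summed to 138 CPM (110 to 172) with Pttg1 and 298 CPM (274 to 323) without, and their part in these ratios was not tested. Both comparisons share the 1277 cells and are not independent of each other. Of the 190 cells with Cenpa 3.68% were mitosis-anchor cells, against 0.644% of those without, and of the 293 with Pttg1 3.41%, against 0.407%.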

How the data were processed

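Drop-seq UMI counts were deposited by the authors as whole-number counts per gene and barcode, without normalization, in 1 table with no map from barcode to sample. The submitters' processing notes name build mm10. For the aligner, counter, annotation and choice of the 4000 barcodes the entry is: not given in the sources used here. Gene rows were summed over cells with at least 500 genes and at most 10% mitochondrial UMIs and scaled to a common total (CPM). The members, timing groups, anchor and pathway lists were chosen with earlier results of these data known, and every member could be named, other genes from those lists. For comparisons each cell was thinned to 2000 UMIs (seed 1), and ratios were computed for all genes with at least 50 UMIs, called where the whole 95% interval lay beyond 1.5-fold. A count of 0 was set to 3 counts in median log2 ratios. With 1 sample no test was run. Promoters came from RefSeq (GRCm38.p6, matched by symbol) and gene tails from the GENCODE transcripts of the reference. Alternatives covered thinning depth and seed, cell filters, class limits, the CPM total, ambiguous barcodes and very deep cells. Intervals came from scipy 1.17.1 under Python 3.11.15, sums from numpy 2.4.6, tables from pandas 2.3.3 and plots from matplotlib 3.10.9.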

Additional observations from a re-analysis of the deposited data

Results flagged for a closer look

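The 235 barcodes left out by the filters also held the mitotic genes. Their summed level was 8298 CPM (7900 to 8712), on 1626 UMIs of the 54 genes, at a median of 671 UMIs per barcode, beside 8620 CPM in the kept cells. It was listed because these barcodes enter no comparison and their level lies far above the limit that a count of 0 allows. No cause was tested.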

How the results depend on the processing

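No paired analysis was possible because no barcode is assigned to a sample. All 54 genes had at least 50 UMIs under each of the 6 alternatives tried for that count. Genes higher in mitosis-anchor than in low cells numbered 53 to 54, and genes higher in S-anchor than in low cells 37 to 45, over 12 alternatives each. The early minus late difference of 1.26 on the log2 scale was 0.85 at 1000 UMIs per cell and 0.93 with looser class limits. The median pairwise r was 0.0932 at 1000 UMIs, where counts are sparser. Cenpa without Top2a kept 54.2% at 3000 UMIs, 55.8% with levels from all UMIs, 31.7% in cells without the 4 early genes, and 54.03% and 39.8% with Top2a read from all UMIs of cells with at least 4000 and 8000 UMIs (added after the data were seen). Pttg1 kept 51.2% without the 4 early genes and 56.1% in the cells with at least 8000 UMIs. Among 2577 recomputed ratios of single genes 2346 stayed within their interval, 231 moved and 0 reversed. Where no value above shows a cause of these shifts, the cause was not tested. Depth limits what a missing Top2a UMI says about a cell, and with 1 sample the spread between cultures is unknown.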
